A study of Rattus norvegicus with 23 samples.

Results

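The genes described here encode voltage-gated calcium channel subunits and the sodium-calcium exchanger, in 6 regions of the rat heart and its great vessels. The list held 8 genes: Cacna1c, Cacna1d, Cacna1g, Cacna1h, Cacna2d1, Cacna2d2, Cacnb2 and Slc8a1. Array probes were assigned to a listed gene when the accession in the scanner output belonged to that gene in a RefSeq table. Of the 8 listed genes, 7 had a probe, and their 13 probes were part of 45440 probes and 16544 named genes. Cacna1d, which encodes another L-type pore, had no probe matched by this rule and was not analysed here. All 7 genes with a probe passed the filter on dim genes.

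RNA from male Wistar rats aged 8 to 11 weeks was hybridized to 23 single-color Agilent arrays, which measure the brightness of a labelled copy of each transcript on its probe. The regions were the part of the left atrium (LA) next to the pulmonary vein, a mass of the left ventricle (LV), the right ventricular free wall (RV), the sinoatrial node region (SA), the pulmonary vein (PV) and the pulmonary artery (PA). LA, LV, SA, PV and PA had 4 arrays each and RV had 3. The sources used here name no treatment, and all rats were of 1 strain. An SA sample held the tissue of 2 rats, and an LV mass was cut into 3 pieces that served as samples, so LV arrays can share an animal. The study used 12 rats for these 23 arrays, so some rats gave more than 1 sample. Arrays of different regions can therefore share an animal too, and the main fit did not pair them. The sources used here do not give the rat of each sample, so p-values measure the spread between these samples, which may be technical. In bulk tissue, fewer cells of a type and less RNA per cell cannot be told apart.

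Voltage-gated calcium channels open on depolarization and let calcium into the cell. L-type channels, built around a pore such as that of Cacna1c, carry the calcium current that triggers contraction, while T-type channels, with the pores of Cacna1g and Cacna1h, open at more negative potentials and are known from pacemaker cells. The beta and alpha-2-delta subunits set how many channels reach the surface membrane and how they gate. The sodium-calcium exchanger, encoded by Slc8a1, is the main route by which cardiac muscle cells remove the calcium that entered.

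The stretches just before the annotated starts of 3 of these genes are shown because Cacnb2 and Slc8a1 had their lowest signal in the same region, PA, whereas Cacna1c, on its brightest probe, had not. Each is 250 bases long, read 5′ to 3′ from RefSeq on build GRCr8, and ends at the base before a start. Capitals mark a GATA motif, which is AGATAA and its variants with T in place of the leading A, G in place of the final A, or both, on either strand, or an E-box (CANNTG), 2 motifs of transcription factors known from heart muscle. The Cacna1c window is chr4:154051749-154051998 on the minus strand, the Cacnb2 windows of 2 starts are chr17:82472965-82473214 and chr17:82596542-82596791 on the plus strand, and the Slc8a1 window is chr6:19023309-19023558 on the plus strand.
Cacna1c: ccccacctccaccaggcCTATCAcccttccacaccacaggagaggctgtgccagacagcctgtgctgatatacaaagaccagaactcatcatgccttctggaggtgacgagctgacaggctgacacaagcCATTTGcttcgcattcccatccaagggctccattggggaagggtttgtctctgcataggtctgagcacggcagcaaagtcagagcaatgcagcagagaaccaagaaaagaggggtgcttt
Cacnb2, first start: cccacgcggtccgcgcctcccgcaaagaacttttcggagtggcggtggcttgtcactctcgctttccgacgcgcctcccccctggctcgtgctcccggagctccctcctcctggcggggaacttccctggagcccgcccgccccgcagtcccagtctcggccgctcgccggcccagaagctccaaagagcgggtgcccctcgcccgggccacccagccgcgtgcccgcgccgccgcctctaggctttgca
Cacnb2, second start: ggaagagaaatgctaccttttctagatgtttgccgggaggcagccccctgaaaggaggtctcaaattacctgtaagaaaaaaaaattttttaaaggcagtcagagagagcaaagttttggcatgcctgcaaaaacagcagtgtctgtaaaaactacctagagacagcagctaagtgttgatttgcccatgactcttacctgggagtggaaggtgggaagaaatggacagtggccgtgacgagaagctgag
Slc8a1: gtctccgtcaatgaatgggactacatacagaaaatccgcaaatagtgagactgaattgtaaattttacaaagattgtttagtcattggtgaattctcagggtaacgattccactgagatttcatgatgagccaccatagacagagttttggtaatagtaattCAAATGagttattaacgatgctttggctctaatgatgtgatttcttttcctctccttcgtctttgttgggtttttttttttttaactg

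The RefSeq table held 9 such windows for 6 of the 8 listed genes and none for Cacna1g and Cacna1h. In the Cacna1c window, a GATA motif written CTATCA lay 233 to 228 bases before the start and an E-box, CATTTG, lay 120 to 115 bases before it. The Slc8a1 window held the E-box CAAATG 88 to 83 bases before its start, and neither Cacnb2 window held either motif. That Slc8a1 start lies inside the gene, which runs from base 18975498 to 19299704 of chromosome 6 and has 30 RefSeq transcripts. Of all 33465 windows in the table, 27% held a GATA motif and 65.5% an E-box. GC content was 54.4% for Cacna1c, 73.2% and 45.6% for the Cacnb2 starts and 35.2% for Slc8a1, against a median of 51.2% over all windows. The T-box half-site AGGTGT was held by 11.6% of all windows, the core promoter motif TATAAA by 12.9%, the CArG box by 1.5% and the MEF2 motif by 2.96%. These were also searched on both strands and lay in none of the 9 windows of the listed genes. A match is a description of the letters and shows no binding.

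Signals below are log2 of the deposited normalized signal plus 1, taken from the brightest probe of a gene on each array, and differences between regions are on the same log2 scale. Levels of different genes are not compared, since each probe has its own brightness. With limma's F-test over the 6 regions, 6 of the 7 genes differed at an adjusted p below 0.05, the threshold for a call, and 64.4% of the 16089 genes tested did so. The exception was Cacna2d2, which was dim in every region. Over the 15 pairs of regions, 57 of 105 contrasts of these genes were called, against 31.2% of the contrasts of all genes.

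**Figure D1:**
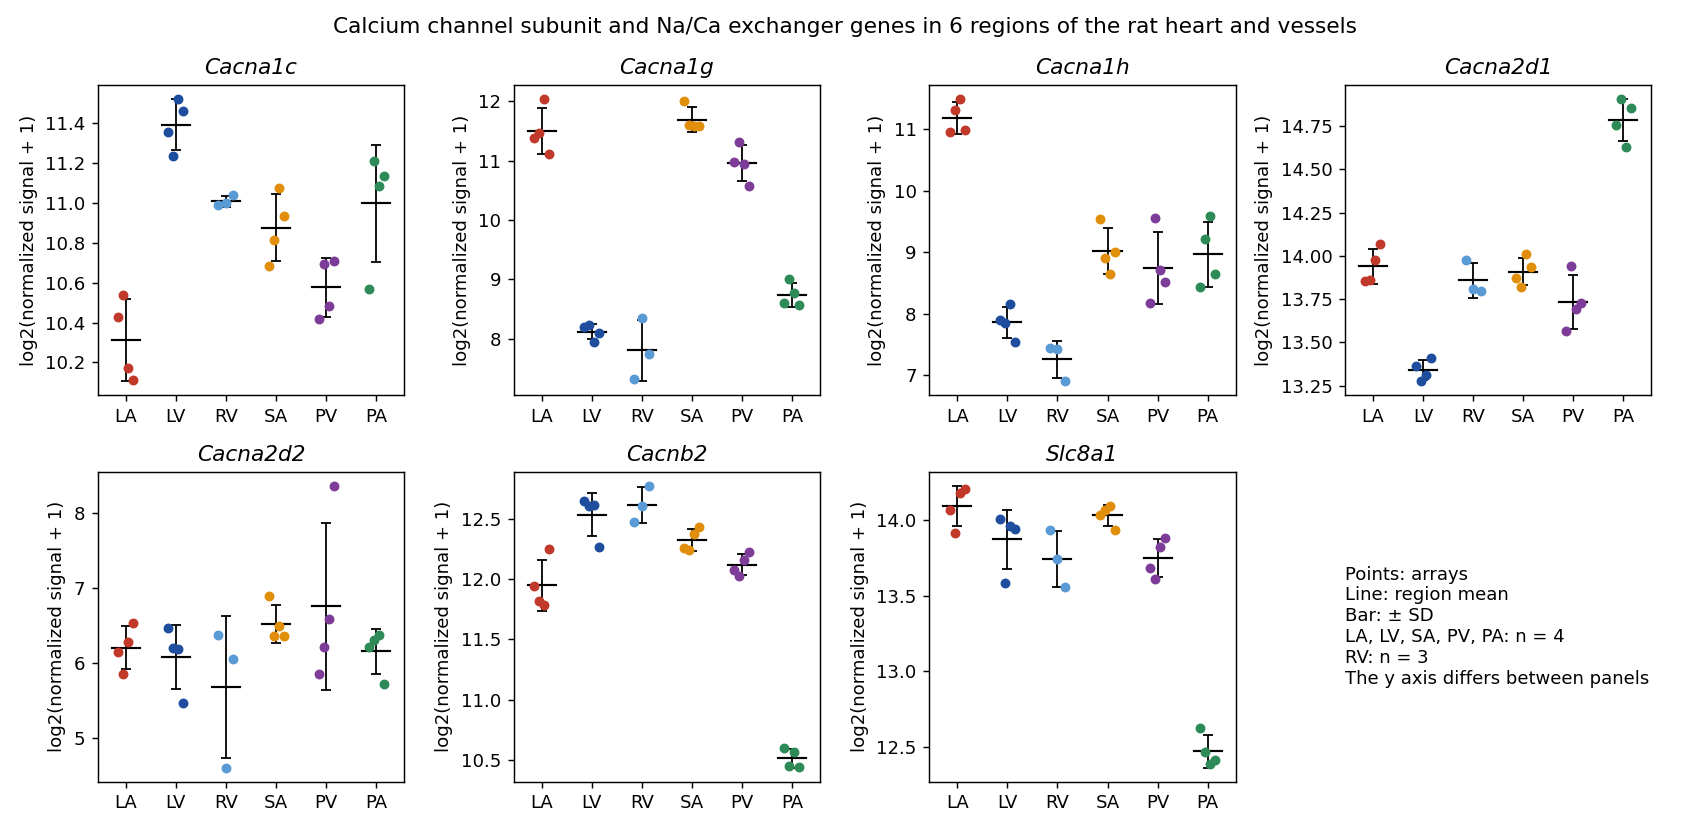
Log2 signal of the 7 genes in each region, 1 point per array, with the region mean as a line and ± SD as a bar. Cacna1g and Cacna1h span the widest ranges, Cacna2d1 is highest in PA (14.63 to 14.90), and Cacnb2 and Slc8a1 are lowest there.

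Cacna1c, the pore of the main L-type channel of cardiac and smooth muscle, was highest in LV and lowest in LA, with a narrow range over the 6 regions. The LV arrays read 11.35, 11.23, 11.52 and 11.46 in log2 signal. The LA arrays read 10.43, 10.54, 10.17 and 10.11. Every LV array was above every LA array, and the means differed by 1.08 ± 0.13 (standard error), or 2.11-fold (limma, adjusted p = 2.98e-06). Within slides 1, 2 and 3, LA minus LV was -1.29, -1.04 and -1.18.

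Between these ends, Cacna1c read 10.988, 10.997 and 11.037 in RV. It read 10.68, 10.81, 11.07 and 10.93 in SA. The SA arrays lay above LA by 0.56 ± 0.13 (adjusted p = 0.00663) and below LV by 0.52 ± 0.13 (adjusted p = 0.00617). The PV arrays read 10.42, 10.70, 10.48 and 10.71, and the PA arrays 10.57, 11.21, 11.09 and 11.13. PA replicate 1 stood below the other 3 PA arrays. In the order LV, RV, PA, SA, PV, LA, no step between neighbours was called, with adjusted p from 0.228 to 0.968. The LV and RV arrays of Cacna1c did not overlap, yet their difference of 0.38 had an adjusted p of 0.288.

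Some smaller calls for Cacna1c were lost without single arrays or under other settings. LV exceeded PA by 0.39 ± 0.13 (adjusted p = 0.0159), which became 0.25 with an adjusted p of 0.0778 without PA replicate 1. RV exceeded PV by 0.43 ± 0.14 (adjusted p = 0.0319), and the difference stayed between 0.38 and 0.44, with an adjusted p between 0.0673 and 0.0866, when PV replicate 1, PV replicate 3 or any of RV replicates 1, 2 and 3 was left out. It was 0.28 with an adjusted p of 0.192 after normexp background correction, and the call was also lost with slide as a block (adjusted p = 0.0679) and with the 75th percentile as the scale (adjusted p = 0.0627). PA exceeded PV by 0.42 ± 0.13 (adjusted p = 0.0109), with an adjusted p of 0.0582 in a fit of the PV and PA arrays alone.

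The T-type pores had the largest differences among these genes. Cacna1g was high in LA, SA and PV and low in LV, RV and PA. Its SA arrays read 12.01, 11.60, 11.58 and 11.58 in log2 signal, and its LA arrays 11.38, 11.47, 12.04 and 11.11. The PV arrays read 10.98, 11.31, 10.94 and 10.58. SA and LA overlapped, with a difference of 0.19 ± 0.21 (adjusted p = 0.617), and so did LA and PV, with a difference of 0.54 ± 0.21 (adjusted p = 0.10).

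In the low regions, Cacna1g read 8.19, 8.23, 7.94 and 8.10 in LV. It read 7.33, 8.35 and 7.75 in RV. It read 8.60, 9.0, 8.78 and 8.56 in PA. All 12 arrays of SA, LA and PV lay above all 11 arrays of LV, RV and PA, and the probe was well above background on all 23 arrays. LA exceeded LV by 3.38 ± 0.21, or 10.4-fold (adjusted p = 3.88e-10), and SA exceeded RV by 3.88 ± 0.23, or 14.8-fold (adjusted p = 2.63e-10). Within slides 1, 2 and 3, LA minus LV of Cacna1g was 3.94, 3.48 and 2.90.

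The order for Cacna1g was SA, LA, PV, PA, LV, RV. The step from PV to PA measured 2.22 ± 0.21, or 4.65-fold (adjusted p = 2.08e-08), and that from PA to LV measured 0.62 ± 0.21 (adjusted p = 0.0160). The PA to LV call was lost without PA replicate 2, at 0.53 with an adjusted p of 0.0549, and with normexp background correction, at 0.39 with an adjusted p of 0.0711. SA and PV did not overlap and differed by 0.74 ± 0.21 with an adjusted p of 0.0593. Without PV replicate 2 that difference was 0.86 with an adjusted p of 0.0379, and 5 other settings also brought it below the threshold.

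Cacna1h, the other T-type pore with a probe, was high in LA alone. The LA arrays read 10.96, 11.31, 11.49 and 10.98 in log2 signal. The SA arrays read 9.53, 8.91, 8.64 and 9.0. LA exceeded SA by 2.16 ± 0.28, or 4.48-fold (adjusted p = 3.93e-05), and the value was 2.27, 2.13 and 2.34 within slides 1, 2 and 3. The PV arrays read 8.18, 9.56, 8.71 and 8.52, and the PA arrays 8.43, 9.21, 9.59 and 8.64. SA, PA and PV overlapped, and none of their pairwise differences was called. PV replicate 2 stood above the other PV arrays by most of the range of that region.

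In the ventricles, Cacna1h read 7.90, 7.85, 8.15 and 7.54 in LV and 7.43, 7.43 and 6.91 in RV. Both ventricles lay below all arrays of the other regions. LA exceeded LV by 3.32 ± 0.28, or 10.0-fold (adjusted p = 2.32e-08), and RV by 3.93 ± 0.30, or 15.2-fold (adjusted p = 1.15e-08). SA exceeded LV by 1.16 ± 0.28, or 2.23-fold (adjusted p = 0.00397). PV exceeded LV by 0.88 ± 0.28 (adjusted p = 0.0214), which had an adjusted p of 0.0619 without LV replicate 4 and 0.0948 without PV replicate 2. Over all alternatives, LV minus PV ranged from -1.53 to -0.37, and it was -1.32 within slide 1 and -0.37 within slide 2. LV and RV differed by 0.61 ± 0.30 with an adjusted p of 0.497.

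Cacna1g and Cacna1h thus moved unequally between LA and both SA and PV. Within an array, the log2 signal of the Cacna1g probe minus that of the Cacna1h probe ranged from 0.12 to 0.55 in LA. The same quantity ranged from 2.48 to 2.94 in SA and from 1.76 to 2.80 in PV. It lay between -0.21 and 0.56 in LV, between -0.11 and 0.92 in RV and between -0.81 and 0.17 in PA. The LA range did not overlap those of SA and PV. This difference between the 2 genes was not tested, and its absolute size has no meaning because the probes differ in brightness.

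**Figure D2:**
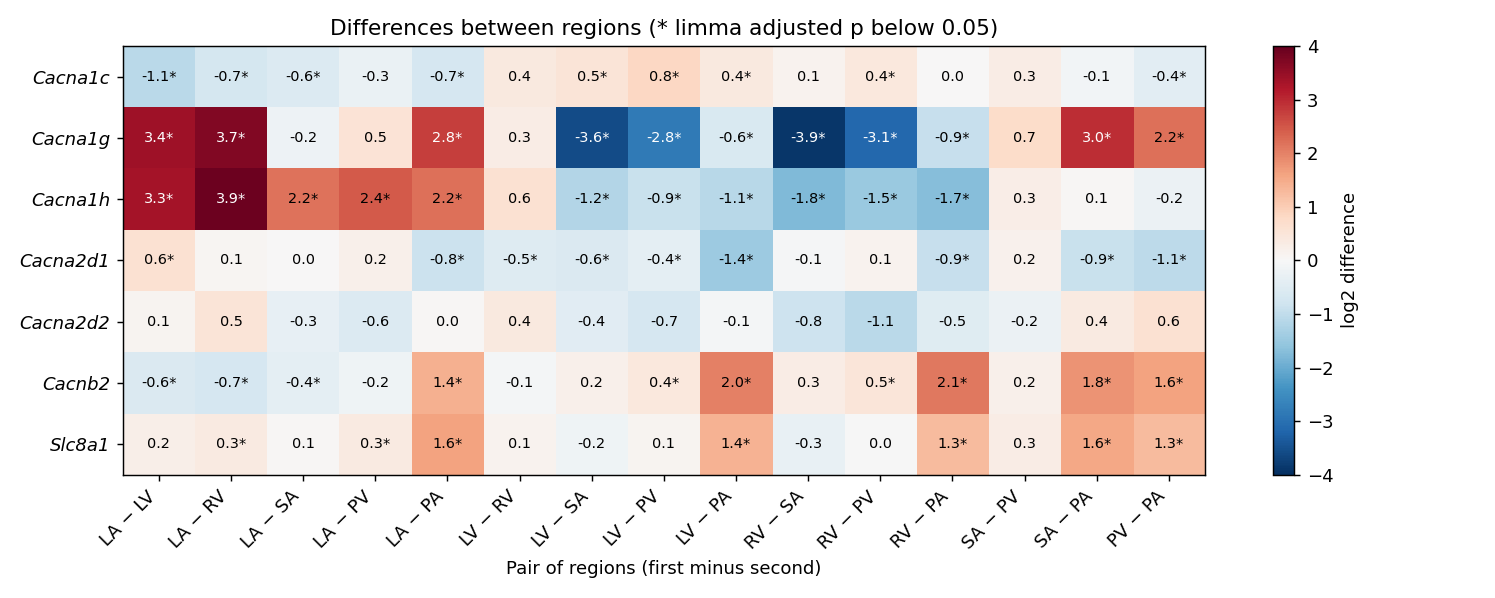
Log2 difference between the first and second region of each of the 15 pairs (columns) for the 7 genes (rows), where an asterisk marks a limma adjusted p below 0.05. Red means higher in the first region, and the T-type pores Cacna1g and Cacna1h hold the largest values, up to 3.93 for Cacna1h in LA over RV.

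Cacna2d1 encodes the alpha-2-delta-1 subunit, an extracellular partner of the channel and the binding site of gabapentin. It was highest in PA and lowest in LV. The PA arrays read 14.76, 14.90, 14.63 and 14.85 in log2 signal. The LV arrays read 13.37, 13.28, 13.31 and 13.41. The 11 arrays of LA, RV and SA lay between, from 13.80 to 14.07, and the PV arrays read 13.57, 13.94, 13.69 and 13.73. No PA array and no LV array overlapped any other region.

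For Cacna2d1, PA exceeded the next region, LA, by 0.85 ± 0.09, or 1.80-fold (adjusted p = 4.86e-08), and exceeded LV by 1.45 ± 0.09, or 2.72-fold (adjusted p = 1.18e-11). Within slides 1, 2 and 3, LV minus PA was -1.44, -1.32 and -1.51. At the lower end, PV exceeded LV by 0.39 ± 0.09 (adjusted p = 0.00139). LA, SA, RV and PV followed each other in steps of 0.03, 0.05 and 0.13, none of them called. The LA and PV difference of 0.21 (adjusted p = 0.127) became 0.28 with an adjusted p of 0.0351 without PV replicate 2.

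The ventricles differed in this gene. The RV arrays of Cacna2d1 read 13.98, 13.81 and 13.80, all above the LV arrays. RV exceeded LV by 0.52 ± 0.09, or 1.43-fold (adjusted p = 0.0106). Cacna2d1 was the only 1 of the 7 genes called between LV and RV, where 0.522% of all genes were called. LV minus RV was -0.58 within slide 2 and -0.47 within slide 3, and slide 1 held no RV array. The call was lost without RV replicate 1, at 0.46 with an adjusted p of 0.0801, and in a fit of the LV and RV arrays alone, with an adjusted p of 0.195.

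Cacna2d2, which encodes a second alpha-2-delta subunit, was dim. Its log2 signal ranged from 4.61 to 6.89 on 22 arrays and reached 8.36 on PV replicate 4. It was well above background on 3 of 4 LV arrays, 2 of 3 RV arrays and all arrays of the other regions. The region means ran from 5.68 ± 0.94 (SD, n = 3) in RV to 6.76 ± 1.11 (SD, n = 4) in PV. No pair of regions was called, and the difference between RV and PV, 1.07 ± 0.46 with an adjusted p of 0.0975, had an adjusted p below the threshold without PV replicate 1, at 1.38 in size with an adjusted p of 0.0376, as well as with slide as a block, at 1.33 with 0.0462, and with quantile normalization, at 1.19 with 0.0337. The SD within PV exceeded every difference between region means for this gene.

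Cacnb2 encodes the beta-2 subunit, the main beta subunit of cardiac L-type channels, which brings the pore to the surface membrane. It was highest in the ventricles and lowest in PA. The LV arrays read 12.65, 12.61, 12.61 and 12.27 in log2 signal, and the RV arrays 12.47, 12.60 and 12.77. The PA arrays read 10.60, 10.46, 10.57 and 10.45. LV exceeded PA by 2.02 ± 0.10, or 4.05-fold (adjusted p = 1.72e-12), with 1.82, 2.05 and 2.10 within slides 1, 2 and 3.

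The SA arrays of Cacnb2 read 12.25, 12.24, 12.37 and 12.43. The LA arrays read 11.94, 11.82, 11.79 and 12.25, and the PV arrays 12.08, 12.03, 12.16 and 12.22. LA replicate 4 was the highest LA array and lay above every PV array and level with the lower SA arrays, and no PA array overlapped any other region. LV exceeded LA by 0.58 ± 0.10, or 1.5-fold (adjusted p = 0.000209), and LA still exceeded PA by 1.43 ± 0.10, or 2.70-fold (adjusted p = 4.58e-10). In the order RV, LV, SA, PV, LA, PA, only this last step was called.

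Some smaller differences of Cacnb2 lay near the threshold. SA exceeded LA by 0.38 ± 0.10 (adjusted p = 0.0194), and the difference was between 0.32 and 0.36, with an adjusted p between 0.0530 and 0.0686 without LA replicate 2, LA replicate 3, SA replicate 3 or SA replicate 4. LV and SA differed by 0.21 (adjusted p = 0.168), which became 0.30 with an adjusted p of 0.0419 without LV replicate 4. LV exceeded PV by 0.41 ± 0.10 (adjusted p = 0.00488), which was 0.25 with an adjusted p of 0.0933 after normexp background correction.

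Slc8a1, the exchanger, had region means within 0.35 of each other in the 5 other regions and a lower mean in PA. The LA arrays read 14.07, 13.91, 14.18 and 14.21 in log2 signal, and the SA arrays 14.03, 14.07, 14.09 and 13.93. The LV arrays read 14.01, 13.58, 13.96 and 13.94, and the RV arrays 13.93, 13.74 and 13.56. The PV arrays read 13.68, 13.61, 13.82 and 13.88. These 5 regions overlapped in a chain from LA to RV, and no step between neighbours among them was called.

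The PA arrays of Slc8a1 read 12.63, 12.46, 12.38 and 12.41, below all 19 others. LA exceeded PA by 1.62 ± 0.10, or 3.08-fold (adjusted p = 6.32e-11), and RV, the next lowest region, exceeded PA by 1.27 ± 0.11, or 2.42-fold (adjusted p = 7.41e-09). Within slides 1, 2 and 3, LA minus PA was 1.77, 1.61 and 1.66. LA also exceeded PV by 0.34 ± 0.10 (adjusted p = 0.0334) and RV by 0.35 ± 0.11 (adjusted p = 0.0258). Both calls were lost without single arrays, and that against PV also with blocks, with an adjusted p of 0.0515 with slide and 0.0796 with array row as a block. LA against PV measured between 0.30 and 0.35 with an adjusted p between 0.0576 and 0.0955 without LA replicate 1, 3 or 4 or PV replicate 1 or 2, and LA against RV measured between 0.26 and 0.35 with an adjusted p between 0.0634 and 0.153 without LA replicate 3 or 4 or RV replicate 2 or 3. SA exceeded RV by 0.29 with an adjusted p of 0.0783, and by 0.38 with an adjusted p of 0.0379 without RV replicate 1.

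Of these genes, 4 had several probes, and the probes did not always move alike. The Cacnb2 probes did, as LV exceeded PA by 2.02 on the brightest and by 1.89 ± 0.15 on the other (adjusted p = 1.23e-09 over all probes). The Cacna2d1 probes had the same direction, with PA above LV by 1.45 and by 0.93 ± 0.14 (adjusted p = 1.07e-05), but PA above LA by 0.85 on the brightest and by 0.37 ± 0.14, or 1.30-fold, on the other (adjusted p = 0.0346). LV had the lowest mean on that other probe too. There it was not called against PV (0.18 ± 0.14, adjusted p = 0.399), SA (0.36 ± 0.14, adjusted p = 0.0873) or RV (0.55 ± 0.15, adjusted p = 0.169). For Slc8a1, LA exceeded PA by 1.62 on the brightest probe but by 0.46 ± 0.14 (adjusted p = 0.00967) and 0.36 ± 0.17 (adjusted p = 0.106) on the others, which were well above background on all 23 arrays. The 3.08-fold value of Slc8a1 thus rests on 1 of its 3 probes, although all 3 had their lowest mean in PA. LA minus RV, 0.35 on the brightest, was -0.02 on the third.

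The Cacna1c probes differed in where PA stood. On the second probe, PA had the lowest mean, 6.79 ± 0.27 (SD, n = 4), and LV exceeded it by 0.80 ± 0.22 (adjusted p = 0.00565). On the brightest probe PA exceeded LA by 0.69, whereas on the second LA and PA differed by 0.20 ± 0.22 (adjusted p = 0.524) in the other direction. The third probe was well above background on 12 of 23 arrays only, and on it PA had the highest mean, 5.48, and exceeded LA by 1.16 ± 0.33 (adjusted p = 0.00743). LV exceeded LA on all 3 Cacna1c probes, by 1.08, 0.60 and 0.91, with adjusted p of 0.0617 and 0.0550 on the last 2. Cacna1g, Cacna1h and Cacna2d2 had 1 probe each and no such check.

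**Figure D3:**
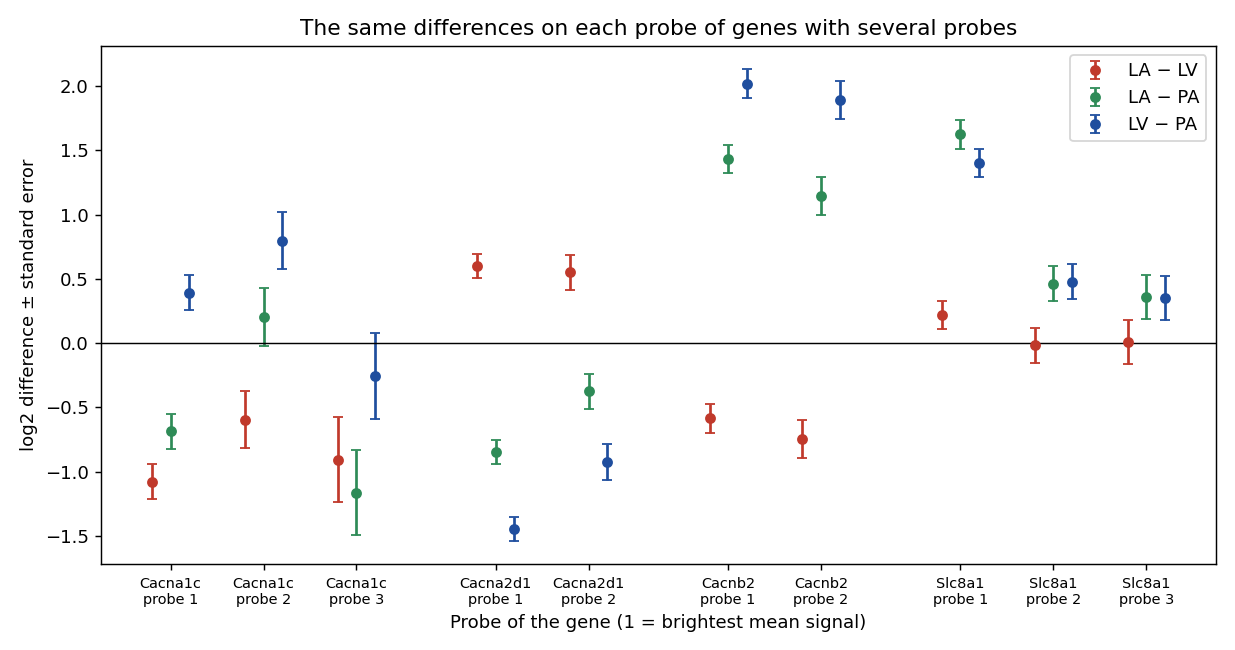
Log2 difference ± standard error on each probe of the 4 genes with several probes, for LA minus LV (red), LA minus PA (green) and LV minus PA (blue). The Cacnb2 and Cacna2d1 probes keep their directions, whereas LA minus PA of Slc8a1 drops from 1.62 on the brightest probe to 0.46 and 0.36 on the others.

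By pair of regions, the calls fell as follows, with the percentage of all 16089 genes called beside each. LA against LV gave 5 of 7 genes (33.8%), with Cacna1g, Cacna1h and Cacna2d1 higher in LA and Cacna1c and Cacnb2 higher in LV. LA against RV gave 5 (27.2%), with Slc8a1 in place of Cacna2d1. LA against SA gave 3 (15.3%), of which Cacna1h was higher in LA and Cacna1c and Cacnb2 in SA, and LA against PV gave 2 (13.5%), Cacna1h and Slc8a1, both higher in LA. SA against PV gave 0 of 7 by limma, where 3.49% of all genes were called, and at an unadjusted p below 0.05 it gave 3, Cacna1c, Cacna1g and Slc8a1, where 15.9% of all genes passed that looser threshold.

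Against the ventricles, SA gave 4 of 7 for LV (26.2%) and 2 of 7, the T-type pores, for RV (21.7%), while PV gave 5 for LV (31.6%) and 4 for RV (25.9%). The T-type pores were higher in SA and in PV than in either ventricle. Against PA the counts were 6 for LA (52.1%), 6 for LV (55.8%), 5 for RV (53.6%), 4 for SA (53.6%) and 5 for PV (53.4%). Cacna2d1 was higher in PA, and Cacnb2 and Slc8a1 lower, in all 5 of these contrasts, which share the PA arrays. The shares of all genes called against PA are large, and the 4 of 7 for SA lies close to its share.

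The study itself compared LA, SA and both ventricles together. In a limma fit of those 15 arrays, 5 of the 7 genes differed, against 40.5% of 15809 genes tested. The adjusted p was 4.51e-09 for Cacna1g, 8.35e-08 for Cacna1h, 0.000224 for Cacna1c, 0.000963 for Cacnb2 and 0.0457 for Cacna2d1. Slc8a1, at 0.0712, and Cacna2d2, at 0.257, did not pass. The Cacna2d1 call was lost when any of the 12 arrays of LA, LV and SA was left out, with adjusted p from 0.0575 to 0.0929, whereas it held without RV replicate 1, 2 or 3. With LV alone as the ventricle its adjusted p was 0.000149. Slc8a1 passed without LA replicate 2 (adjusted p = 0.0491) and without LV replicate 1 (adjusted p = 0.0485).

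Markers checked the labelled tissues, as summed normalized signals on a linear scale. The 5 cardiomyocyte markers Actc1, Tnnt2, Myh6, Ryr2 and Tnni3 summed to between 1372190 and 2337470 on the arrays of the 5 other regions and to between 127783 and 197372 in PA, where all 5 were still well above background on every array. The 5 smooth muscle markers Myh11, Acta2, Cnn1, Tagln and Actg2 summed to between 648377 and 777320 in PA and to at most 90253.6 elsewhere, in PV. The low Cacnb2 and Slc8a1 and the high Cacna2d1 signals of PA thus came with a low cardiomyocyte and a high smooth muscle marker sum, and the part of that tissue make-up in these differences was not tested.

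The atrial markers Nppa, Sln, Myl7, Myl4 and Mybphl summed to between 1286600 and 1758140 in LA, SA and PV and to at most 423208 in the ventricles. Myl4 did not share this pattern, with a mean log2 signal of 17.92 in LV and 17.74 in LA. The 3 ventricular markers Myl2, Myl3 and Irx4 summed to at least 773477 in the ventricles and at most 103736 in LA, SA and PV. The pacemaker markers differed in where they were highest. Shox2 had its highest mean log2 signal in SA, 11.40, with 11.03 in PV, and was well above background on no LV or RV array. Hcn4, at 10.34, and Tbx3, at 10.73, were also highest in SA, although Tbx3 reached 10.60 in LV. Tbx18 and Isl1 were highest in PA, at 12.23 and 8.70, and Isl1 was well above background on 1 of 4 SA arrays. Cacna1g was high in the regions with high atrial markers, whereas Cacna1h was high in LA alone of them. The 4 autonomic neuron markers with a probe summed to between 570.6 and 852.4 in LA, 1159.0 and 2003.2 in SA and 1878.7 and 19367.8 in PV. The 2 adipocyte markers with a probe summed to between 144.9 and 575.5 in LA, 2781.9 and 13650.7 in SA and 615.6 and 7372.4 in PV. Their sums were 5427.2 to 12916 in PA, where Cacna2d1 was highest, and 24.0 to 47.2 in LV, where it was lowest. The mesothelial marker Msln, the 1 of its list with a probe, was highest in LA like Cacna1h, at 14767.1 to 18602.6, against 3784.5 to 7342.5 in SA and at most 6849.5 in PV and 1399.7 in LV. The 3 endothelial markers Pecam1, Cdh5 and Vwf summed to between 43120.5 and 52887.1 in LV, where Cacna1c was highest, and to between 24485.9 and 31252.0 in LA, although Pecam1 alone had a mean log2 signal of 13.42 in LV and 13.51 in LA. Smooth muscle marker sums were 4554.8 to 6263.4 in LA, 26068.9 to 50307.6 in SA and 57407.6 to 90253.6 in PV. The part of these cell types in the differences between LA, SA, PV, PA and LV was not tested.

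**Figure D4:**
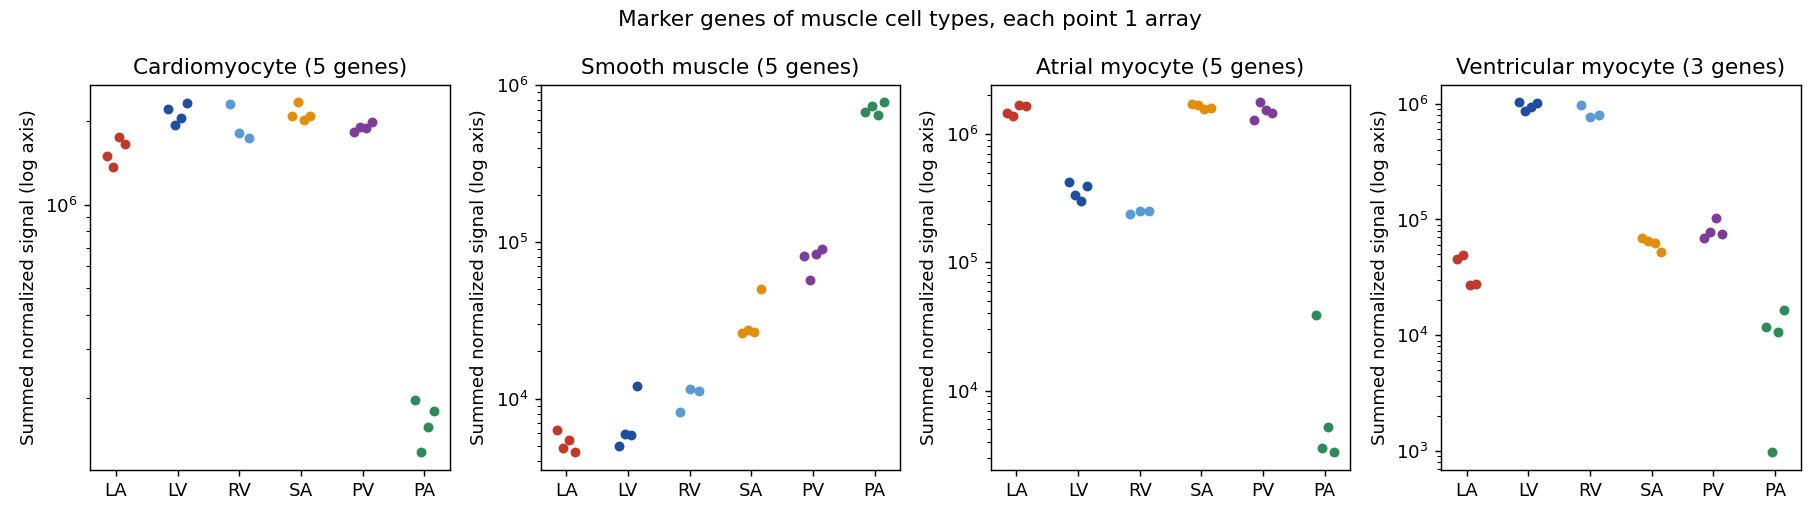
Summed normalized signal of marker genes on a log axis, 1 point per array, for cardiomyocyte, smooth muscle, atrial and ventricular markers. PA has the lowest cardiomyocyte sums (127783 to 197372) and the highest smooth muscle sums (648377 to 777320).

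Related genes outside the list were counted in 4 groups, with 64.4% of all genes as the background of the F-test over 6 regions. Of 6 other pore genes 1 was called, of 13 other auxiliary subunits 6, of 12 tested channel regulators 9 and of 10 tested calcium transporters 4. Those named passed the F-test, were well above background on every array of their highest region and spanned at least 2 on the log2 scale between their highest and lowest region. These 6 are Cacng6, Atp2b2, Cacna1f, Cabp1, Slc24a3 and Cacnb3.

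Among auxiliary subunits, Cacnb3, another beta subunit, had the pattern opposite to Cacnb2 in PA. The PA arrays read 11.43, 11.90, 11.44 and 11.61 in log2 signal, and the other 19 arrays from 9.33 to 9.98. PA exceeded SA by 2.17 ± 0.13 (adjusted p = 1.30e-11). Within an array, Cacnb2 minus Cacnb3 ranged from -1.45 to -0.83 in PA and from 1.87 to 3.37 over all other arrays. The sign and absolute size of this quantity do not tell which gene had more RNA, because the probes differ in brightness. Its change between regions was not tested. The gamma subunit gene Cacng6 was well above background on every array except those of PA, where it was on none. Its LA arrays read 8.39, 8.91, 8.93 and 8.65, at least 20.5-fold above PA when PA is set to the dimmest signal well above background on each array. That bound was not tested. The signals as measured differed by 5.15 between LA and PA (limma, adjusted p = 7.27e-14). LA also exceeded SA, by 1.03 ± 0.21 (adjusted p = 0.00241).

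Cacna1f, an L-type pore known from the retina, was the 1 of the 6 other pore genes called in the F-test over regions. It was well above background on 4 of 4 LV arrays, 2 of 3 RV arrays, 1 of 4 PA arrays and no LA, SA or PV array. The LV arrays read 6.66, 6.54, 5.49 and 5.91 in log2 signal, at least 5.03-fold above LA by the same untested bound. The signals as measured differed by 3.57 between LV and LA (limma, adjusted p = 0.000207). Cabp1, a calmodulin-like calcium sensor, was highest in PA, at 8.77, 9.38, 9.13 and 9.57, and lowest in LA, with a difference of 3.49 ± 0.42 (adjusted p = 6.67e-07).

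Among transporters, Slc24a3, a potassium-dependent sodium-calcium exchanger, read 8.66, 8.88, 8.90 and 8.29 in LV and from 9.86 to 11.58 on the arrays of all other regions. LV lay below RV by 1.35 ± 0.19 (adjusted p = 0.00111) and below LA by 2.44 ± 0.18 (adjusted p = 2.72e-09). Atp2b2, a plasma membrane calcium pump, was highest in PV, at 9.26, 7.84, 9.01 and 9.49, and lowest in PA. PV exceeded SA by 2.04 ± 0.43 (adjusted p = 0.0132) and LA by 3.0 ± 0.43 (adjusted p = 0.000104), and PV replicate 2 was the lowest of the 4 PV arrays.

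**Figure D5:**
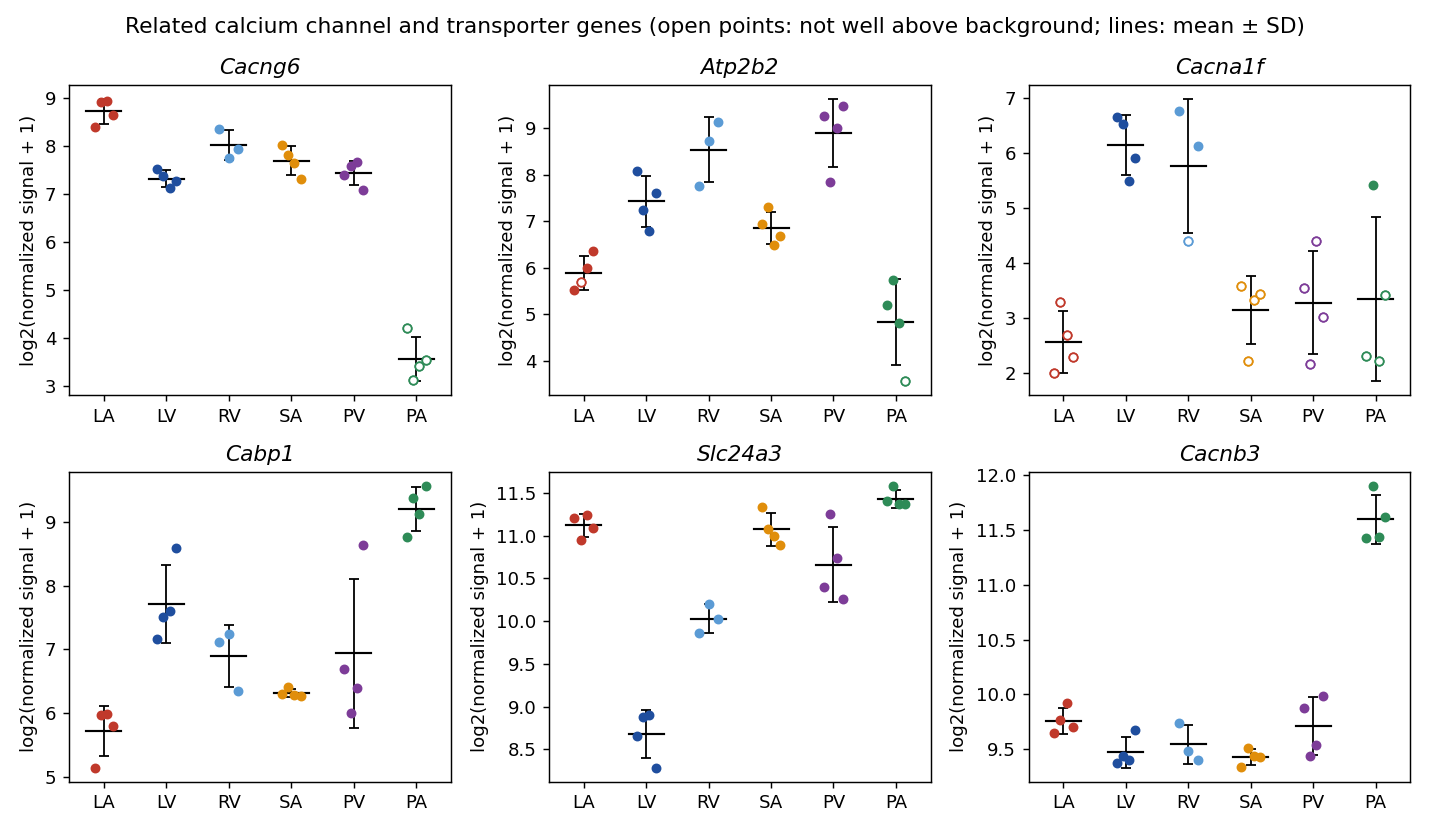
Log2 signal of the 6 related genes in each region, 1 point per array, with lines for the mean ± SD and open points for arrays not well above background. Cacnb3 is high in PA alone (11.43 to 11.90), Cacng6 is not well above background in PA, and Slc24a3 is lowest in LV.

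The genes whose signals followed these genes most closely over the 23 arrays are given as a description, since all arrays of a region share their tissue. Cacna1g was most like Rab15 (Pearson r = 0.977) and Nr1h3 (0.976), and Cacna1h most like Fam151b (0.936) and Stat5a (0.933). Cacna1c was most like Spef1 (0.898) and Tspan1 (0.858). Cacna2d1 was most like Ccdc50 (0.951) and Ankrd12 (0.945), and Cacna2d2 most like Micu3 (0.754) and MAST1 (0.725). Cacnb2 was most like Mrpl40 and Tufm (both 0.988), which serve mitochondrial translation, and Slc8a1 most like Parp1 and Phpt1 (both 0.969). Rab15, for example, had means of 12.64, 13.01 and 13.02 in LA, SA and PV and of 5.65, 5.37 and 6.97 in LV, RV and PA.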

How the data were processed

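RNA of 6 regions was measured on single-color Agilent SurePrint G3 Rat GE arrays. Per the file headers, Agilent Feature Extraction 11.0.1.1 wrote for each spot a linear processed intensity, corrected for background and for spatial trends, with marks for spots well above background. The authors' deposited normalized intensities are these values multiplied by 1 factor per array (0.881 to 1.52), which sets the 90th percentile to between 3984 and 3988; on each array, 99.6% to 99.8% of probes followed that factor within 2%. The deposited intensities were used for all results, and the scanner intensities as alternatives and for the marks.

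Of 45596 probes, 156 with a missing value were removed. Accessions were matched to symbols in a RefSeq table (GRCr8), which named 21047 probes and 16544 genes. The highest probe of a gene on each array was taken as log2(intensity + 1), and genes above 4 on at least 1 array were tested: 16089 over 6 regions and 15809 over LA, SA and both ventricles. The filter, the probe rule and the pseudocount follow the study's methods, which named genes by Ensembl identifiers. limma 3.58.1 (R 4.3.3) fitted region means without a block to all 23 arrays, with a gene's spread pooled over the 6 regions. P-values were adjusted by Benjamini-Hochberg over all genes, within each pair of regions. The fits were tested on simulated data. Python 3.11.15, pandas 2.3.3 and matplotlib 3.10.9 were used for tables and plots.

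Probes well above background made up 58.6% to 79.8% per array, with a median of 77.3% in row 1 of the slides and 61.5% in row 2; no spot was saturated. The number of arrays limits the precision. The least similar arrays of a region had a Spearman correlation of 0.975 over the 16089 genes tested.

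All listed genes are named; related genes are named where they pass the F-test, are well above background on every array of their highest region and span at least 2 on the log2 scale; the 2 genes most like each listed gene are named by Pearson's r among genes well above background throughout its highest region. The genes and lists were chosen with earlier results of these data known. Alternatives covered the normalization, background correction, filter, probe rule, pseudocount, blocks, spread estimate, adjustment and each array left out. The summed levels of some marker lists are not reported here.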

Additional observations from a re-analysis of the deposited data

Results flagged for a closer look

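Among groups of 4 arrays, 35 combinations of gene and region were examined for 1 array far from the rest by Dixon's ratio, and 3 were past its critical value, where chance gives about 1 in 20. In SA, Cacna1g read 12.01 in log2 signal on replicate 1, above the other 3 arrays at 11.58 to 11.60. In LV, Cacnb2 read 12.27 on replicate 4, below the other 3 at 12.61 to 12.65. In LV, Slc8a1 read 13.58 on replicate 2, below the other 3 at 13.94 to 14.01. The PV value of 8.36 for Cacna2d2 did not pass.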

How the results depend on the processing

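The counts of 6 genes over 6 regions and 57 contrasts over pairs kept within 1.5 times under all alternatives run, as did the 5 genes over LA, SA and ventricles. No called difference on the brightest probe changed its direction under the alternatives run on it, whereas other Cacna1c probes turned LA minus PA (to 0.20), PV minus PA (to 0.24) and LV minus PA (to -0.26), and the third Slc8a1 probe turned LA minus RV (to -0.02). Leaving out each array in turn gave 6 genes, 55 to 58 contrasts and 4 to 5 genes. The fewest contrasts, 50, came from fits of only the arrays of the 2 regions compared, and the most, 60, from adjustment over all genes and pairs together. Fits of only 2 regions also ended the calls of Cacna1c in LV over PA (adjusted p = 0.0644), Cacna1h in PV over LV (0.0570), Cacnb2 in SA over LA (0.0808) and Slc8a1 in LA over PV (0.0886) and RV (0.106). Of the 57 called contrasts, 47 stayed past the threshold in every setting with a test, and 10 did not in some. Of the uncalled, 8 passed in some setting. The replicate block gave 6 genes, 57 contrasts and 4 genes. The RV arrays were numbered as in the labels, from which the study's own numbering differs for 1 of them. Replicate numbers are shared by the labels of all regions, which do not say whether a number marks 1 animal. Deviations of arrays with the same number correlated by -0.018 on average, and 12 of 55 pairs were over 0.1. This cannot decide whether samples were paired, since slide and array row also grouped the deviations. Their average correlation was 0.0887 within a slide and -0.0413 between slides. It was 0.0798 for arrays of the same row and -0.0742 for different rows. Slide as a block gave 6, 56 and 4, and so did array row. In these 3 block fits the gene no longer called over LA, SA and ventricles was Cacna2d1, and the methods' plain analysis of variance also called 4 genes there, without Cacna2d1 (adjusted p = 0.0512). Normexp, quantile normalization, the 75th percentile and a trend in the prior variance each called 6 there. The added gene was Cacna2d2 with normexp (adjusted p = 0.0329). It was Slc8a1 with quantile normalization (0.0103), the 75th percentile (0.0466) and the trend (0.0381). Naming probes by a gene name column was not run, because the scanner output used here has none. Dim signals limit Cacna2d2 and the third Cacna1c probe. The largest shift of the median difference of all genes under another setting was 0.079 on the log2 scale, with quantile normalization.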
